A study of Homo sapiens with 18 samples.

Results

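Respiratory chain subunits of complexes I to IV were followed across 9 clones of HCT116, an established human colorectal carcinoma cell line. Members were chosen by symbol: the NDUFA, NDUFB, NDUFC, NDUFS and NDUFV genes followed by a number, SDHA to SDHD, the UQCR genes and CYC1, and the COX4 to COX8 genes. Of 19775 genes measured by a probe set with a single symbol, 59 were members, and 54 of them were among the 12531 genes whose signal was high enough for testing. The 54 were 32 subunits of complex I, 3 of complex II, 7 of complex III and 12 of complex IV. NDUFC2, NDUFS5, NDUFS8 and UQCRH lay only in probe sets that name several genes. These 4 genes, SDHB, UQCRFS1 and the mitochondrially encoded subunits were not analysed here.

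RNA from each clone was hybridised to 2 arrays that the labels call biological replicates, 18 arrays in all, after 6 days of culture. The parental cells carried wild-type IDH1 and IDH2, which encode isocitrate dehydrogenases that use NADP, IDH1 in the cytosol and IDH2 in mitochondria. Clone 16F8 had been targeted for IDH1 R132C and is labelled heterozygous for it, but did not express the mutant allele and was wild-type at the mRNA level. It is called wild-type below in that sense only. Clones 2C11 and 2H1 were heterozygous for IDH1 R132H and clone 3A4 for IDH1 R132C. Clones 8G12 and 17H5 were heterozygous for IDH2 R140Q, and clones 47C2 and 45G3 for IDH2 R172K. Each line is 1 clone, so a comparison of 2 lines compares clones and not genotypes. The labels do not say how the replicate cultures were separated, so p-values measure the spread between these samples, which may be technical.

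The respiratory chain of the inner mitochondrial membrane passes electrons from NADH (complex I) and succinate (complex II) through ubiquinone to complex III, and from there through cytochrome c to complex IV, which reduces oxygen. Complexes I, III and IV pump protons, and the gradient drives ATP synthase. Most subunits are encoded in the nucleus, and several complex IV subunits have isoforms that are restricted to muscle, lung or testis. Isocitrate dehydrogenase mutations of the kind carried here make 2-hydroxyglutarate from 2-oxoglutarate.

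Replicate arrays of a clone correlated at 0.9869 to 0.9952 over log2 signals, and arrays of different clones at 0.9505 to 0.9905. Replicate 2 of 17H5 stood apart: it had the highest array median (15.6, against 12.3 at the lowest), the smallest spread of log2 signals (SD 2.853) and the lowest mean log2 signal over the members (9.971, against 10.238 at the highest). On 4 arrays (parental replicate 1, 2C11 replicate 1, 16F8 replicate 1 and 8G12 replicate 2) the poly-A spike controls were 1.67-fold higher than on the other 14. Of 6 colon epithelial markers 5 were tested, and their summed signal ranged from 10062.6 to 14659.1 over the arrays (VIL1 was not tested). CDH1, the epithelial cadherin, was lower than in parental cells in 7 of 8 clones, from -0.59 to -1.78 on the log2 scale, but not past the threshold in 17H5 (-0.25 ± 0.14, adjusted p = 0.245). The 5 tested markers did not all move with CDH1. In 2H1 and in 3A4, 3 of 5 lay above parental, by up to 0.38, and in the other clones at most 1 of 5 did. Among 5 haematopoietic markers on the array, PTPRC, CD14, CD3E and CD79A were at 12.9 or below on every array, while LYZ ranged from 8.2 in parental cells to 142.1 in 2H1. Of the 6 fibroblast markers COL1A1 alone was tested. The part of these differences in the results below was not tested.

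Arrays read RNA from whole cultures, in which fewer expressing cells and less RNA per cell cannot be told apart. The members' median log2 signal was 10.30, against 7.95 over all genes tested. The spread of a gene is given as the highest minus the lowest of the 9 clone means on the log2(signal + 2.2) scale, and its median was 0.34 for the members against 0.62 for all genes. In limma's moderated F test among the 9 clones, with Benjamini-Hochberg adjustment over all genes and a threshold of 0.05, 17 of 54 members passed (31.5%), and 52.3% of all genes did. By complex, 11 of 32 passed in complex I, 2 of 3 in complex II, 3 of 7 in complex III and 1 of 12 in complex IV. Without 3A4 replicate 1, and also without 47C2 replicate 1, 11 members passed. When each array was left out in turn, NDUFA8, NDUFA9, NDUFB2, NDUFB3, NDUFB6, NDUFB10, NDUFV1 and UQCR10 always passed. SDHA and COX6B2 missed the threshold in 1 of 18 omissions, NDUFS3 in 2, NDUFA2 and UQCRC1 in 3, SDHD in 9, NDUFB4 in 11, CYC1 in 13 and NDUFA5 in 14.

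**Figure D1:**
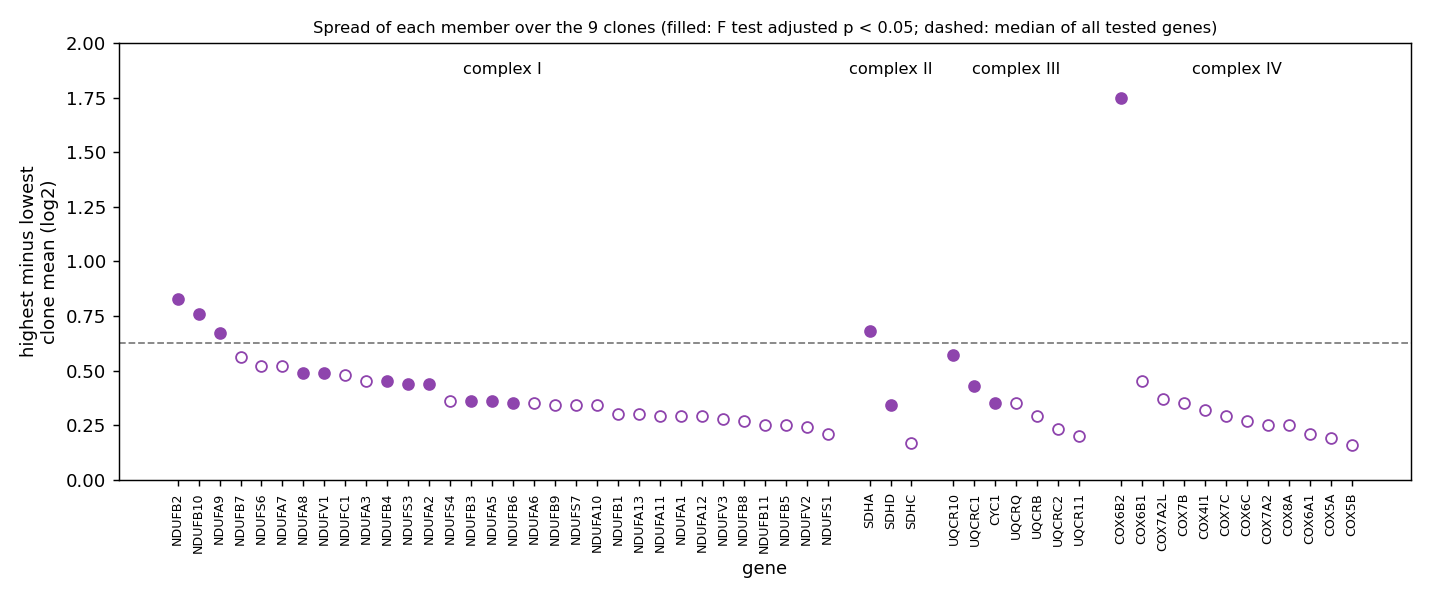
Highest minus lowest of the 9 clone means (log2 units, vertical axis) for the 54 tested members, grouped by complex along the horizontal axis. The dashed line is the median over all genes tested. COX6B2 lies at 1.75, and most other members lie below the dashed line.

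Against parental cells, 23 members passed in at least 1 clone: 17 were only higher and 6 only lower, 31 passed in none, and no member was higher in 1 clone and lower in another. Of all genes, 60.2% passed in at least 1 clone, 28.5% only higher, 28.9% only lower and 2.79% in both directions. Summed over the 8 clones the members had 49 higher and 13 lower calls, 11.3% and 3.01% of 432 pairs of a member and a clone, and over all genes these shares were 13.2% and 12.3%. All 8 comparisons share the 2 parental arrays. NDUFA9 and SDHA were higher in 7 clones and UQCRQ in 6 (UQCRQ was singled out after its values were seen). Of the 62 calls, 45 were kept without parental replicate 1, 18 without parental replicate 2, and 12 when each of the 18 arrays was left out in turn. These 12 calls were NDUFA9 in 3A4, 47C2 and 45G3, SDHA in 2H1, 3A4 and 47C2, NDUFB10 in 16F8 and 8G12, NDUFB2, NDUFS3 and UQCR10 in 3A4, and NDUFA8 in 47C2.

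The bases upstream of the 3 members that were higher in the most clones are shown with the matches to 2 motifs found upstream of many respiratory genes, those of NRF1 (GCGCA and GCGC with any 1 base between them) and of the ETS family (CCGGAAG), searched on both strands. Each window is the 250 bases before the gene's start in RefSeq (GRCh38.p14), written 5′ to 3′ on the gene's strand, and matches are in capitals. The windows are chr12:4648864-4649113 for NDUFA9, chr5:218070-218319 for SDHA and chr5:132866392-132866641 for UQCRQ, all on the plus strand.
NDUFA9: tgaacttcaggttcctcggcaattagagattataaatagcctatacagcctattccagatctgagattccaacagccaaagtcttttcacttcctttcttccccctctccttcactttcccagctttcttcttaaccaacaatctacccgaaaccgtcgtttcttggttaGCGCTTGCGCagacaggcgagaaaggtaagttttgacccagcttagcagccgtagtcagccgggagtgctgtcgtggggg
SDHA: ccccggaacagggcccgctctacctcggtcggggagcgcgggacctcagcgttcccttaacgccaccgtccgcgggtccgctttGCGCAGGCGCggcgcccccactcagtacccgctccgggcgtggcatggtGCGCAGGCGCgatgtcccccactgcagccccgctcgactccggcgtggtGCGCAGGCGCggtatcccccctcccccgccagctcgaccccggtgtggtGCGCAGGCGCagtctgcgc
UQCRQ: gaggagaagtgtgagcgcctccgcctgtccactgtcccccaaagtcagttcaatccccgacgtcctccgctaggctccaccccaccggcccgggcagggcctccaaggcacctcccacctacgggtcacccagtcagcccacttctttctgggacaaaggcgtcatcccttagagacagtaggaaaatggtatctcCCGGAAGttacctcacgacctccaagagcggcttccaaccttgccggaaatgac
The NDUFA9 window held 1 NRF1 match, beginning 80 bases before the start. The SDHA window held 4, beginning 166, 117, 68 and 19 bases before it. UQCRQ had an ETS match beginning 54 bases before the start and no NRF1 match. Of 60 member windows (51 of the 59 members had one or more), 16.7% held the NRF1 motif and 20.0% the ETS motif, and 3.33% held both. Over all 35116 windows of the same length these shares were 5.07%, 8.52% and 0.812%. A match is a description of these letters and was not tested for binding.

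Complex I has a matrix arm that oxidises NADH and a membrane arm that pumps protons. NDUFA9 and NDUFB10 had the smallest p-values of its members among the clones. NDUFA9, an accessory subunit of the matrix arm near the ubiquinone site, gave signals of 1059.5 and 939.4 in parental cells, 1342.2 and 1264.2 in 2C11, 1340.3 and 1228.6 in 2H1, 1630.4 and 1555.8 in 3A4, 1314.0 and 1255.1 in 16F8, 1317.1 and 1294.5 in 8G12, 1137.4 and 1038.7 in 17H5, 1439.6 and 1407.2 in 47C2, and 1390.1 and 1357.7 in 45G3. Both arrays of every clone except 17H5 lay above both parental arrays, and both 3A4 arrays lay above all others. The spread was 0.67 (adjusted p = 0.000348). Against parental, NDUFA9 was higher by 0.67 ± 0.09 (SE) in 3A4 (adjusted p = 2.06e-05), 0.51 in 47C2, 0.46 in 45G3 and 0.36 to 0.39 in 2C11, 2H1, 16F8 and 8G12. In 17H5 the difference was 0.12 ± 0.09 (adjusted p = 0.4). Without parental replicate 2 the calls were lost in 2C11 (0.30), 2H1 (0.28), 16F8 (0.28) and 8G12 (0.30), and those in 2H1 and 16F8 also without the clone's own replicate 1 (0.30 and 0.33).

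On the probe set used, NDUFB10, an accessory subunit of the membrane arm, separated 16F8 and 8G12 from the rest. Its signals were 650.2 and 575.4 in parental cells, 770.3 and 787.1 in 2C11, 618.1 and 618.3 in 2H1, 610.6 and 729.6 in 3A4, 1155.7 and 928.0 in 16F8, 889.1 and 1142.3 in 8G12, 687.7 and 742.9 in 17H5, 775.7 and 771.4 in 47C2, and 755.7 and 862.6 in 45G3. All 4 arrays of 16F8, which is wild-type, and of 8G12, which carries IDH2 R140Q, lay above the other 14. NDUFB10 was higher by 0.76 ± 0.13 in 16F8 (adjusted p = 0.000555), by 0.72 ± 0.13 in 8G12 (adjusted p = 0.000971) and by 0.40 ± 0.13 in 45G3 (adjusted p = 0.0294). The 45G3 call was lost without parental replicate 2 (0.31) and without 45G3 replicate 2 (0.30). Another probe set for NDUFB10, of similar mean signal, gave 0.54 in 16F8, 0.20 in 8G12 and 0.24 in 45G3. It gave 0.32 in 47C2, 0.25 in 2C11 and 0.12 to 0.16 in 2H1, 3A4 and 17H5, so it did not set 8G12 apart. The probe set used carries the suffix that marks possible cross-hybridisation.

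NDUFB2, also of the membrane arm, stood out in 3A4. Signals were 1369.1 and 1350.9 in 3A4, against 925.1 and 714.1 in parental cells, 927.8 and 855.4 in 2C11, 902.3 and 876.8 in 2H1, 964.8 and 784.9 in 16F8, 921.5 and 910.8 in 8G12, 832.1 and 704.0 in 17H5, 983.9 and 993.6 in 47C2, and 678.6 and 910.4 in 45G3. The 3A4 arrays did not overlap with any other array, and the difference from parental was 0.74 ± 0.14 (adjusted p = 0.000594). The 2 other NDUFB2 probe sets, which were dimmer, gave -0.36 and 0.28 in 3A4, so the probe sets disagreed in sign.

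NDUFV1, the core subunit that binds NADH and flavin, differed among the clones (spread 0.49, adjusted p = 0.00371) without passing against parental in any of them. Its arrays lay at 485.3 and 468.8 in 2C11 and 462.4 and 515.5 in 2H1, below the parental values of 556.2 and 549.9, and at 597.0 and 714.3 in 3A4, 586.7 and 642.5 in 16F8, 635.5 and 643.2 in 8G12, 692.9 and 618.3 in 17H5, 652.5 and 689.0 in 47C2, and 585.6 and 536.4 in 45G3. The clones with IDH1 R132H were thus the lowest, and the clone with IDH1 R132C was not among them. NDUFA8, an accessory subunit of the membrane arm, gave 890.2 and 778.9 in parental cells and 1171.7 and 1169.0 in 47C2, and the 47C2 arrays lay above all others. It was higher by 0.49 ± 0.10 in 47C2 (adjusted p = 0.00168), 0.36 in 8G12, 0.34 in 16F8 and 0.32 in 45G3, and without parental replicate 2 the last 3 were lost (0.26, 0.24 and 0.23). They were also lost without replicate 1 of 16F8 (0.27) or 45G3 (0.22) and without either 8G12 array (0.32 and 0.40). NDUFB3, of the membrane arm, had parental signals of 1109.1 and 1095.4 and was higher by 0.30 in 2C11 (1333.6 and 1391.1), 0.32 in 16F8 (1390.0 and 1362.3) and 0.29 in 45G3 (1356.1 and 1335.0). Each of these 3 calls was lost when either parental array or either array of the clone was left out, at values of 0.27 to 0.34.

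The other complex I members past the F test were NDUFS3, NDUFB6, NDUFA2, NDUFB4 and NDUFA5, with spreads of 0.35 to 0.45. NDUFS3, a core subunit of the matrix arm, was higher by 0.41 ± 0.09 in 3A4 (adjusted p = 0.00262). NDUFA2 was higher in 16F8 (0.42), 47C2 (0.41) and 8G12 (0.38), and NDUFB6 in 2C11 (0.35) and 16F8 (0.31). Without parental replicate 2 the NDUFA2 and NDUFB6 calls were lost (0.22 to 0.32), and each was lost without at least 1 array of the clone itself (0.26 to 0.39). NDUFB4 passed against parental in no clone.

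In complex I, 2 accessory subunits of the matrix arm, NDUFS4 and NDUFA5, were below parental in all 8 clones, although several of these differences missed the threshold. NDUFS4 signals were 2162.4 and 2162.0 in parental cells and 1563.1 to 1953.0 on the other 16 arrays, with no overlap. It was lower, at -0.36 in 17H5 (adjusted p = 0.0224), -0.35 in 45G3 (0.0106), -0.29 in 2C11 (0.035) and -0.28 in 2H1 (0.0337), and it missed the threshold in the F test (adjusted p = 0.0889). When either parental array was left out, the calls in 2C11, 2H1 and 17H5 were lost at -0.28 to -0.36, and those in 2H1, 17H5 and 45G3 were lost without the clone's own replicate 2 (-0.19, -0.28 and -0.24). The 2C11 call was also lost without either 2C11 array (-0.29). NDUFA5 signals were 1172.1 and 1295.3 in parental cells, 1030.4 and 894.3 in 17H5, 1022.4 and 913.2 in 3A4, and 1003.7 and 993.8 in 47C2. It was lower, at -0.36 in 17H5 (adjusted p = 0.034), -0.35 ± 0.11 in 3A4 (0.0146) and -0.30 in 47C2 (0.0399), and all 3 calls were lost without parental replicate 2 (-0.29, -0.28 and -0.23) and without at least 1 array of the clone itself (-0.26 to -0.31). NDUFA6 (0.35), NDUFB7 (0.48), NDUFB8 (0.24) and NDUFS6 (0.51) were higher in 3A4 and did not pass against parental in the other clones, and were named after their values were seen. None of the 4 passed between 3A4 and 16F8 (adjusted p of 0.0993 to 0.692), and NDUFS6 differed from parental by 0.40 in 16F8, 0.36 in 45G3 and 0.34 in 47C2 (adjusted p of 0.112 to 0.16). Without parental replicate 2 these 4 calls were lost, at 0.30, 0.31, 0.23 and 0.43, and those of NDUFA6, NDUFB8 and NDUFS6 were also lost without an array of 3A4 (0.23 to 0.61). Another NDUFA6 probe set gave 0.15 in 3A4 and from -0.04 in 17H5 to 0.32 in 2C11 and 2H1 in the other clones. A dimmer NDUFB7 probe set gave -0.15 in 3A4, and other NDUFB8 probe sets gave 0.41 and 0.56 there. The calls of NDUFA6, NDUFB7 and NDUFB8 were lost with the probe set of highest variance. That of NDUFB8 was also lost with quantile normalisation between arrays. The remaining 16 complex I members passed neither the F test nor any comparison with parental. Their spreads ran from 0.21 in NDUFS1, a core iron-sulfur subunit, to 0.52 in NDUFA7.

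In complex II, succinate dehydrogenase, SDHA, the catalytic flavoprotein, was higher in 7 clones. On the probe sets used, neither membrane anchor was called higher in any. SDHA signals were 680.0 and 837.1 in parental cells, 936.0 and 1072.3 in 2C11, 1155.4 and 1151.4 in 2H1, 1150.3 and 1268.7 in 3A4, 968.7 and 1206.1 in 16F8, 1141.2 and 1013.5 in 8G12, 1028.4 and 829.4 in 17H5, 1198.8 and 1197.7 in 47C2, and 1206.2 and 1048.8 in 45G3. Only 17H5 overlapped with parental, and the parental arrays themselves differed by more than those of most clones. SDHA was higher by 0.68 ± 0.13 in 3A4 (adjusted p = 0.000785), 0.67 in 47C2, 0.61 in 2H1, 0.57 in 45G3, 0.52 in 16F8, 0.51 in 8G12 and 0.41 in 2C11. The difference in 17H5 was 0.29 ± 0.13 (adjusted p = 0.171). Without parental replicate 1, the lower of the pair, the F test call (0.53) and the calls in 45G3 (0.43), 16F8 (0.37), 8G12 (0.36) and 2C11 (0.26) were lost. Leaving out 16F8 replicate 2 (0.36), 8G12 replicate 1 (0.42) or 2C11 replicate 2 (0.31) also ended the call in that clone. The single SDHA probe set carries the suffix that marks possible cross-hybridisation, and SDHA has pseudogene copies, so its signal may include other transcripts.

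SDHD, a membrane anchor, gave 1790.0 and 1828.6 in parental cells, 1886.4 and 1991.8 in 2C11, 1681.7 and 1487.0 in 2H1, and 1581.1 and 1479.3 in 3A4. Both 3A4 arrays lay below both parental arrays, by -0.24 ± 0.09 (adjusted p = 0.0421), while the spread over the clones was 0.34 (adjusted p = 0.0364). The 3A4 call was lost when either parental array (-0.26 and -0.23) or either 3A4 array (-0.29 and -0.19) was left out. SDHC, the other anchor, ranged from 1761.6 to 2147.0 over the 18 arrays and passed no test (spread 0.17). Its other probe sets disagreed with each other. The brightest of them (mean signal 1890.0) ran from -0.09 to 0.27. Those with mean signals of 1487.7 and 1440.5 lay above parental in all 8 clones (0.03 to 0.28 and 0.10 to 0.44). Of the dimmer ones, 1 lay above parental in all 8 (0.17 to 0.74) and 1 below in all 8 (-0.09 to -0.32).

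In complex III, the subunits UQCR10, UQCRC1 and CYC1 passed the F test, and UQCRQ, which missed it (adjusted p = 0.0609), passed most often against parental. UQCR10, a small membrane subunit, gave 751.2 and 599.7 in parental cells, 894.4 and 807.3 in 2C11, 851.3 and 761.4 in 2H1, 982.5 and 1012.2 in 3A4, 940.1 and 949.3 in 16F8, 813.3 and 897.4 in 8G12, 775.6 and 649.8 in 17H5, 775.2 and 786.5 in 47C2, and 752.6 and 826.2 in 45G3. The 3A4 arrays were the highest and 17H5 overlapped with parental. UQCR10 was higher by 0.57 ± 0.12 in 3A4 (adjusted p = 0.00109), 0.49 in 16F8 (0.00595), 0.35 in 8G12 and 0.34 in 2C11, and without parental replicate 2 the last 3 fell short of the threshold at 0.33, 0.19 and 0.18. The calls in 8G12 and 2C11 were also lost without either array of the clone (0.27 to 0.42). With the probe set of highest variance the calls in 2C11, 16F8 and 8G12 were lost. A dimmer UQCR10 probe set gave 0.68 in 3A4, 0.38 in 2C11, 0.37 in 16F8 and 0.20 in 8G12. It gave -0.30 in 47C2 and 0.09 to 0.28 in 2H1, 17H5 and 45G3.

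UQCRQ, which lies beside cytochrome b, was higher by 0.35 ± 0.09 in 16F8 (adjusted p = 0.00759), 0.28 in 2C11, 0.27 in 8G12, 0.25 in 45G3, 0.24 in 47C2 and 0.22 in 3A4. Its parental signals were 958.5 and 882.1, and all 16 other arrays lay above them, from 989.3 in 17H5 to 1169.8 in 16F8. Without parental replicate 2 all 6 calls were lost, at 0.16 to 0.29, and all but the 16F8 call were also lost without an array of the clone itself (0.19 to 0.29). CYC1, cytochrome c1, was at 651.6 and 602.2 in parental cells and higher by 0.35 in 3A4 (821.6 and 776.1), 16F8 (783.5 and 809.3) and 47C2 (811.6 and 785.3). UQCRC1, a core subunit on the matrix side, was higher by 0.32 ± 0.10 in 47C2 (867.4 and 872.3, against 700.7 and 694.8 in parental cells). Each of the 3 CYC1 calls was lost without parental replicate 2 (0.29), and the UQCRC1 call when either parental array was left out (0.32 and 0.31). Each of these 4 calls was also lost without an array of the clone itself (0.31 to 0.37).

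UQCRB, the ubiquinone-binding protein of complex III, was below parental in all 8 clones and passed in 2 of them. Signals were 3841.9 and 4202.8 in parental cells, 3244.6 and 3421.4 in 47C2, and 3552.5 and 3035.8 in 45G3. It was lower, at -0.29 in 45G3 (adjusted p = 0.0338) and -0.27 ± 0.10 in 47C2 (adjusted p = 0.0492), and quantile normalisation between arrays put the 45G3 difference at 0.00. Of 3 other UQCRB probe sets, the brightest gave -0.24 in 45G3 and -0.17 in 47C2, the next -0.19 and -0.27, and a dim one went in the other direction (0.43 and 0.15). Both calls were lost without parental replicate 2 (-0.23 in 45G3 and -0.21 in 47C2). The 45G3 call was also lost without 45G3 replicate 2 (-0.18), and the 47C2 call was kept in 4 of 18 omissions. UQCRC2 and UQCR11 passed no test, with spreads of 0.23 and 0.20.

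On the probe sets used, complex IV, cytochrome c oxidase, had the smallest spread. Its 12 tested members had a median spread of 0.28, against 0.36 in complex I, 0.34 in complex II and 0.35 in complex III. COX4I1 ranged from 1414.0 to 1972.5 over the 18 arrays, COX6A1 from 1791.6 to 2287.0, COX6B1 from 1107.9 to 1835.7, COX7A2 from 1648.9 to 2146.7, COX7B from 2338.2 to 3266.5 and COX8A from 2817.1 to 3848.1. On the probe sets used, none of these 6, nor COX5A, COX5B, COX6C and COX7C, passed a test among the clones or against parental. Their spreads ran from 0.16 in COX5B to 0.45 in COX6B1. Dimmer probe sets differed more from parental. For COX4I1, one (mean signal 256.4) gave -0.33 in 17H5 and 0.41 to 0.63 in the other clones. Another (40.2) gave 0.22 to 1.05, and a bright one (1404.0) gave -0.04 to 0.37. For COX5A, a dimmer probe set (188.9) gave 0.02 to 0.63, against -0.17 to 0.02 on the one used. The partner isoforms of lung, muscle or testis were near the bottom of the scale: COX4I2 ranged from 0.5 to 14.9, COX6A2 from 2.1 to 7.9, COX7A1 from 0.4 to 3.9, COX7B2 from 0.2 to 1.8 and COX8C from 0.4 to 11.9. None of these 5 reached the array median on any of the 18 arrays, and none was tested. NDUFA4, a complex IV subunit by function, and NDUFA4L2 carry the symbols COXFA4 and COXFA4L2 in the annotation and so fall outside the rule; COXFA4 ranged from 1543.9 to 2325.5, passed the F test (spread 0.44, adjusted p = 0.0167) and passed against parental in no clone.

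COX6B2, the testis isoform of COX6B, was the only complex IV member past the F test (spread 1.75, adjusted p = 0.00528). Its signals were low: 31.4 and 17.0 in parental cells, 26.6 and 19.9 in 2C11, 21.4 and 10.8 in 2H1, 7.2 and 10.0 in 3A4, 33.1 and 25.8 in 16F8, 27.5 and 36.5 in 8G12, 23.5 and 40.0 in 17H5, 22.4 and 29.3 in 47C2, and 37.8 and 30.1 in 45G3. The 3A4 arrays were the lowest, and with 1 array of 2H1 they were the 3 of 18 below their array's median, so COX6B2 passed the filter through the other clones. The difference of 3A4 from parental was -1.25 ± 0.34 (adjusted p = 0.00782). It was lost without parental replicate 1 (-0.84) and without 3A4 replicate 1 (-1.06), and the F test call was lost without 3A4 replicate 1 (1.56).

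COX7A2L, a COX7A-related protein that joins complexes III and IV into supercomplexes, was below parental in all 8 clones. Signals were 2145.6 and 2784.1 in parental cells, 1944.3 and 1862.7 in 47C2, and 2051.8 and 1736.5 in 45G3, so the parental arrays lay far apart. It was lower, at -0.37 in 45G3 (adjusted p = 0.0335) and -0.36 ± 0.13 in 47C2 (adjusted p = 0.0403). Without parental replicate 2 these differences were -0.18 and -0.17 and missed the threshold, as they did without 45G3 replicate 2 (-0.25) and without either 47C2 array (-0.39 and -0.33).

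**Figure D2:**
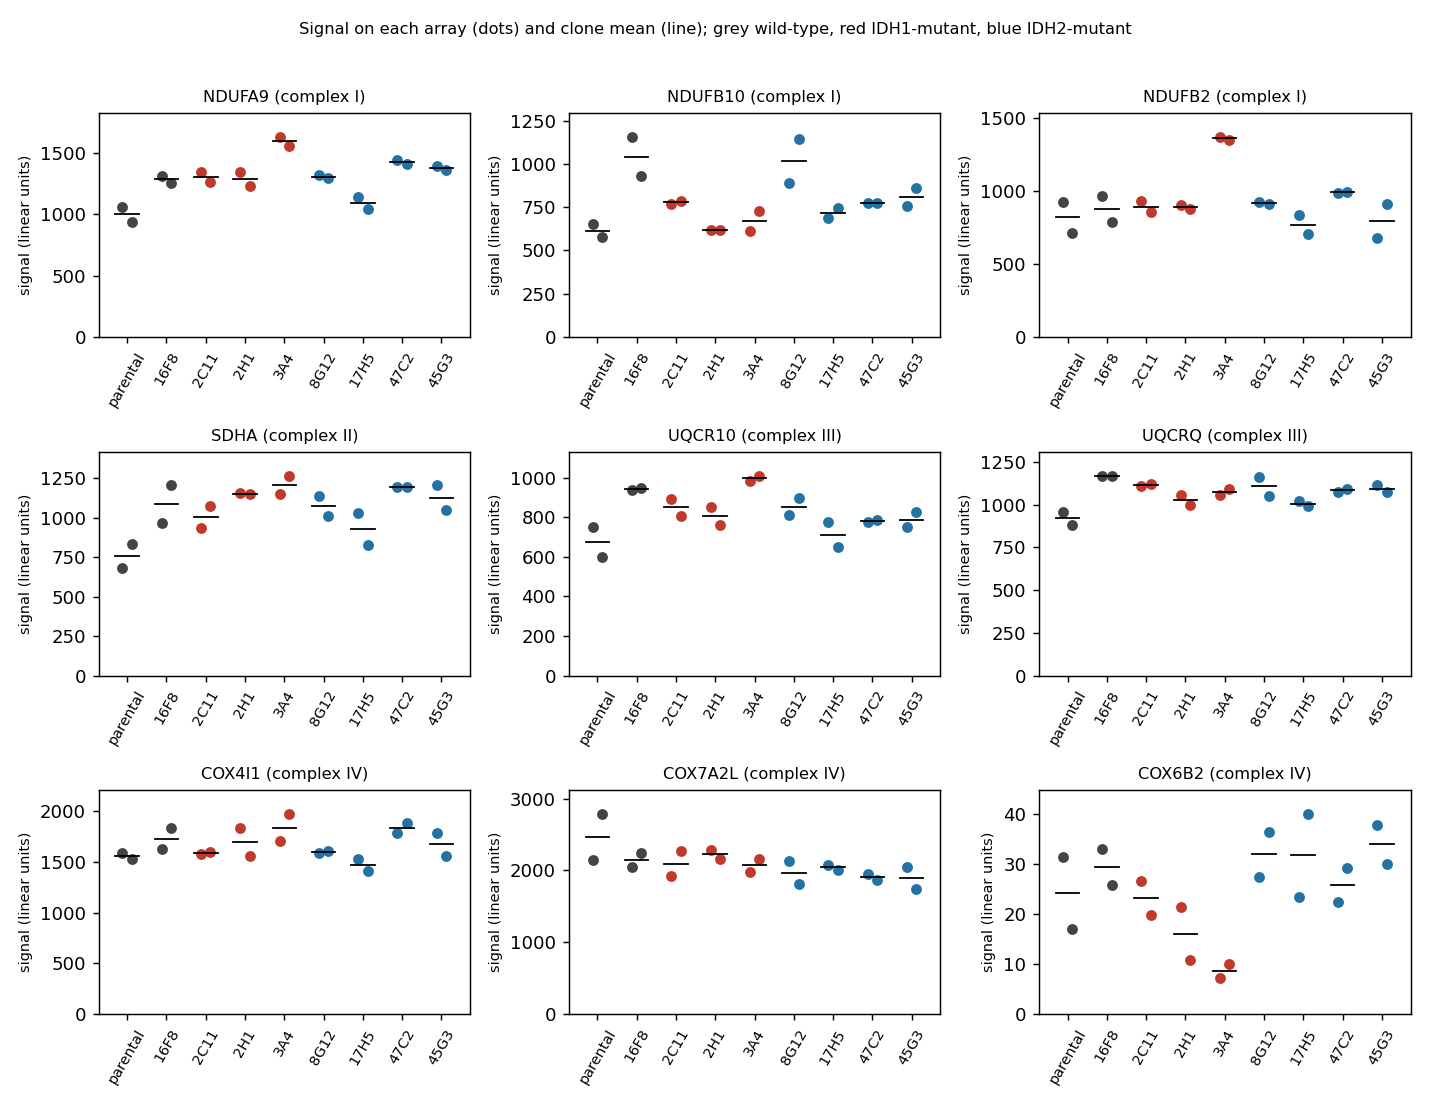
Signal on each of the 18 arrays (vertical axes, linear scale from the deposited values) for 9 members, with clones along the horizontal axis and 1 point per replicate array. Parental points of NDUFA9 and SDHA lie below those of every other clone except 17H5, NDUFB10 is high in 16F8 and 8G12, NDUFB2 is high and COX6B2 low in 3A4, and the parental points of COX7A2L lie at 2145.6 and 2784.1.

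By clone, the number of members past the threshold against parental stayed below the share of all genes in every clone. In 3A4, with IDH1 R132C, 14 members passed (25.9%, against 37.2% of all genes); 11 were higher and 3 lower, and of all genes 17.6% were higher and 19.6% lower. In 16F8, the wild-type clone, 10 members passed, all higher (18.5%, against 22.0% of all genes, 12.4% higher and 9.56% lower). In 47C2, 10 passed, 7 higher and 3 lower (background 28.0%, 14.2% higher and 13.8% lower). In 45G3, 9 passed, 6 higher and 3 lower (background 29.8%, 15.2% higher and 14.7% lower). These members lay in complexes I, II and III, apart from COX7A2L in 47C2 and 45G3 and COX6B2 in 3A4.

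In 2C11, 7 members passed, 6 higher and 1 lower (background 25.8%, 13.4% higher and 12.4% lower). In 8G12, 7 passed, all higher (background 18.4%, 11.4% higher and 7.03% lower). In 2H1, 3 passed, NDUFA9 and SDHA higher and NDUFS4 lower (background 30.9%, 14.7% higher and 16.2% lower). In 17H5, 2 passed, NDUFS4 and NDUFA5, both lower (background 11.8%, 6.88% higher and 4.96% lower).

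These counts rested on few arrays, and members that passed without an array were not always those called with all arrays. In 17H5, NDUFS4 and NDUFA5 were both lost without parental replicate 2. Without parental replicate 2 they fell to 6 in 3A4, to 3 each in 47C2 and 45G3, to 2 each in 2C11, 16F8 and 8G12, and to 1 in 17H5. Leaving out replicate 1 or 2 of the clone itself gave 2 and 1 in 2C11, 9 and 8 in 3A4, 4 and 6 in 16F8, 2 and 4 in 8G12, 5 and 0 in 17H5, and 3 and 4 in 47C2, and leaving out 45G3 replicate 2 gave 4 in 45G3. The 17H5 count was also 0 without parental replicate 1 and 1 without either 47C2 array.

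The median difference of the 54 members from parental was highest in 16F8 (0.13, against 0.02 over all genes) and in 3A4 (0.10, against -0.02), and lowest in 17H5 (-0.08, against 0.02). In 45G3 it was -0.04, and with quantile normalisation 0.05. That normalisation changed the order: 2H1 was lowest (-0.03) and 17H5 was at -0.01, while 16F8 was highest (0.14), followed by 8G12 (0.11), 47C2 (0.09) and 3A4 (0.08). Clone 17H5 had the lowest of the 9 means for 27 of 54 members (50.0%, against 11.9% of all genes), but for 12 without its replicate 2 array and for 13 with quantile normalisation. Clone 3A4 had the highest mean for 27 members (50.0%, against 17.5% of all genes), and for 13 with quantile normalisation. In complex I, 17H5 was lowest for 18 of 32 members and 3A4 highest for 15, and in complex IV each was so for 7 of 12.

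**Figure D3:**
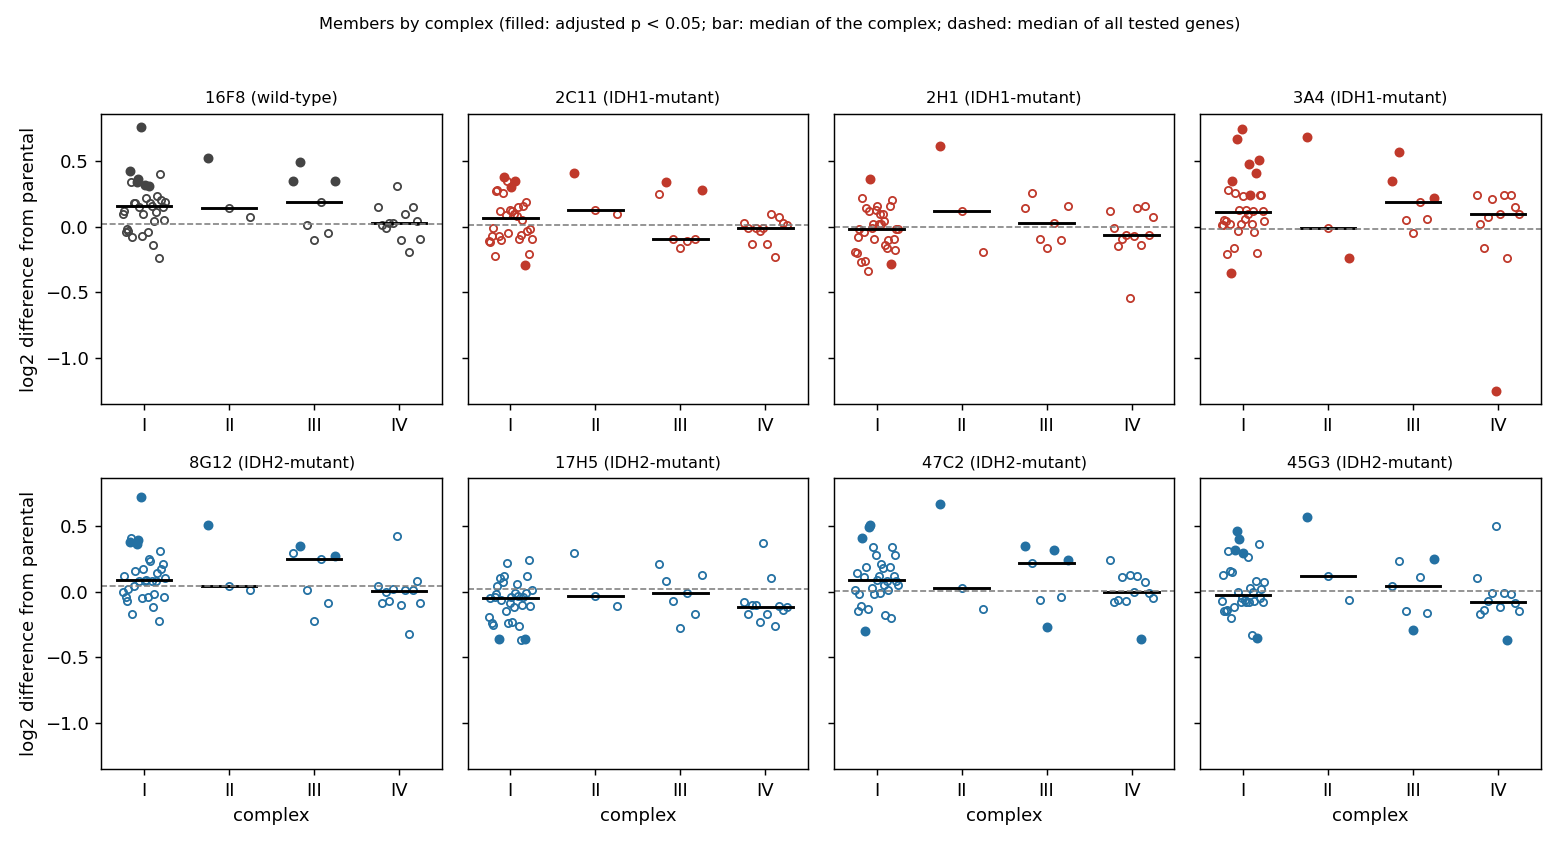
Difference of each tested member from parental cells (log2 units, vertical axis) by complex, in a panel for each of the 8 other clones; bars are the median of a complex and the dashed line is the median over all genes. Most complexes have medians near 0, and the complex III median is 0.25 in 8G12.

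**Figure D4:**
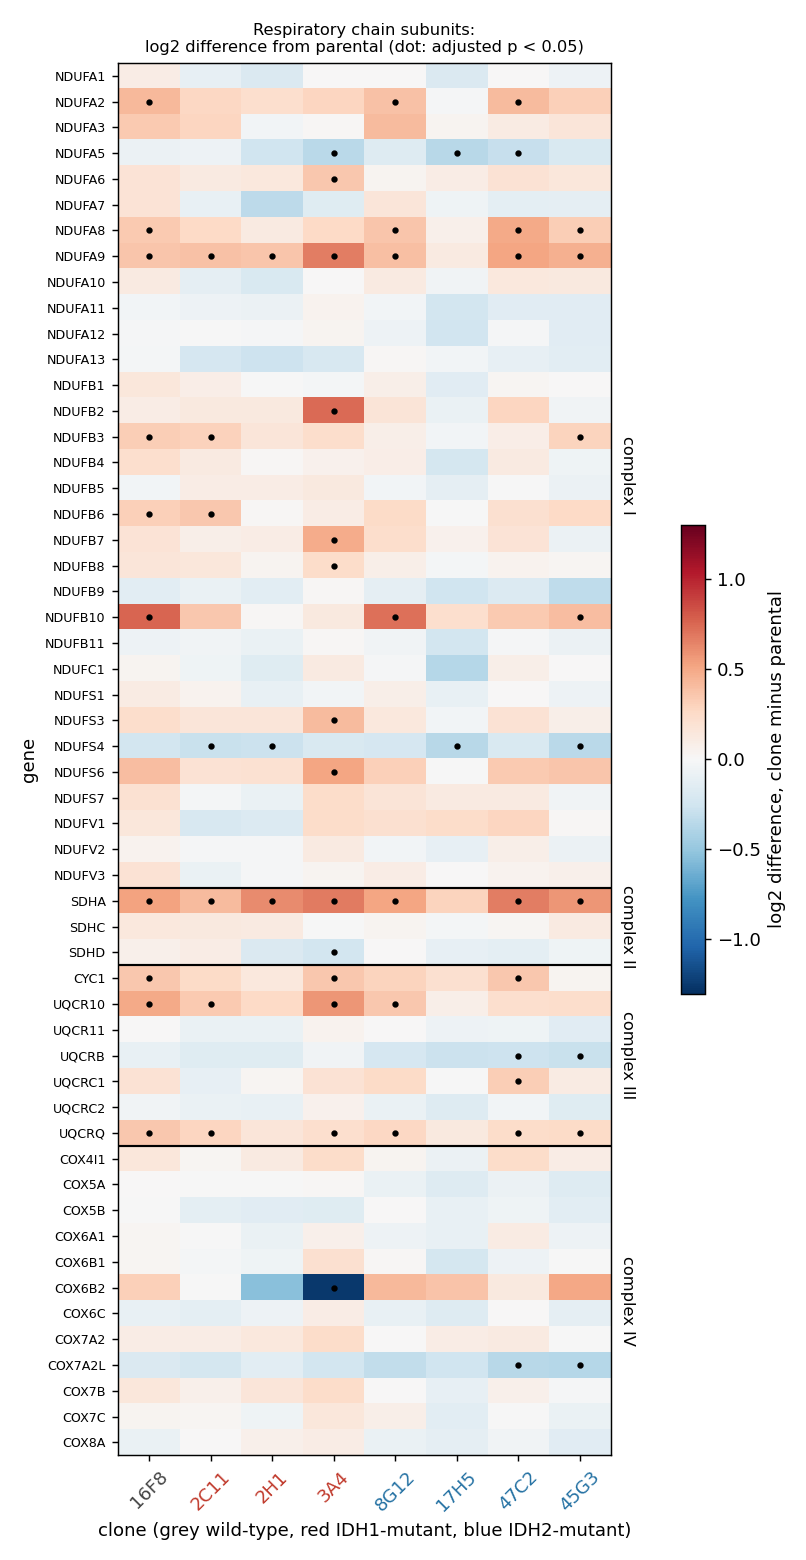
Difference from parental cells (colour, log2 units) for the 54 tested members in rows and the 8 other clones in columns, with dots where the adjusted p was below 0.05. Rows of NDUFA9 and SDHA carry 7 dots and UQCRQ 6, and complex IV carries 3.

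Measured against 16F8, the other wild-type line, few members passed. In 3A4, 5 passed, 2 higher and 3 lower (26.3% of all genes passed, 10.4% higher and 16.0% lower). In 17H5, 5 passed, all lower (8.53% of all genes, 4.41% higher and 4.13% lower), and in 2H1, 4 passed, all lower (16.4% of all genes, 6.43% higher and 10.0% lower). In 2C11, 8G12, 47C2 and 45G3 limma called 0 members (background 2.25%, 0.63%, 6.41% and 2.14%), and 4, 1, 5 and 4 members had an unadjusted p under 0.05, as did 13.1%, 6.71%, 20.0% and 14.0% of all genes. NDUFB10 was lower than in 16F8 in 2H1 (-0.74, adjusted p = 0.000781), 3A4 (-0.63, 0.00177) and 17H5 (-0.53, 0.0175). In 3A4, NDUFB2 (0.64, adjusted p = 0.00276) and NDUFA9 (0.31, 0.0164) were higher and COX6B2 (-1.55, 0.0025) and SDHD (-0.31, 0.0168) lower than in 16F8. In 17H5, NDUFB4 (-0.45, adjusted p = 0.0101), NDUFA2 (-0.44), UQCR10 (-0.41) and NDUFB3 (-0.36) were lower. In 2H1, NDUFA7 (-0.52), NDUFV1 (-0.33) and NDUFA1 (-0.29) were lower. SDHA passed against 16F8 in no clone (adjusted p of 0.319 or above). All these comparisons share the 2 arrays of 16F8, and those of 17H5 include its replicate 2, which stood apart. How the calls against 16F8 change when single arrays are left out or with quantile normalisation is not given here.

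With the clone as the unit of replication, no member passed the threshold between genotype classes, and among all genes almost none did. The 7 mutant clones were compared with the 2 wild-type lines, parental and 16F8, and the 3 IDH1-mutant and 4 IDH2-mutant clones with the wild-type lines and with each other. In these 4 comparisons limma called 0 of 54 members each, and 0.0%, 0.0%, 0.0% and 0.00798% of all genes. Unadjusted p-values under 0.05 were found for 2 members in mutant against wild-type, 3 in IDH1 against wild-type, 3 in IDH2 against wild-type and 7 in IDH2 against IDH1. The shares over all genes were 6.87%, 15.3%, 5.08% and 13.2%. The comparisons with wild-type share those 2 lines.

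The smallest p-values among members in mutant against wild-type belonged to NDUFA5 (-0.21 ± 0.09), COX7A2L (-0.18 ± 0.08) and UQCRB (-0.16 ± 0.07), all with an adjusted p of 0.682. For IDH1 they belonged to NDUFA13 (-0.22 ± 0.09, adjusted p = 0.297), NDUFB5 (0.14 ± 0.06, 0.305) and COX6B2 (-0.75 ± 0.32, 0.305). For IDH2 they belonged to UQCRB (-0.22 ± 0.05), COX7A2L (-0.23 ± 0.07) and COX5A (-0.13 ± 0.05), each with an adjusted p of 0.89. Between IDH2 and IDH1 they belonged to NDUFB5 (-0.17 ± 0.05, adjusted p = 0.227), COX6B2 (0.95 ± 0.27, 0.23) and COX8A (-0.16 ± 0.05, 0.246), and the COX8A difference was 0.02 with quantile normalisation. COX6B2 averaged 16.0 in IDH1-mutant, 30.9 in IDH2-mutant and 26.8 in wild-type clones, and 3A4 is 1 of the 3 IDH1-mutant clones.

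Other genes of the pathway were read from lists of ATP synthase subunits, assembly factors, electron carriers and regulators of mitochondrial biogenesis. In the F test 6 of 18 ATP synthase genes passed, 7 of 16 complex I assembly factors, 1 of 4 of complex II, 2 of 6 of complex III, 9 of 22 of complex IV, 6 of 15 genes for electron carriers and ubiquinone synthesis, and 8 of 13 tested biogenesis regulators, beside the 52.3% of all genes. TTC19, which maintains complex III, was lower than in parental cells in all 8 clones, by -0.37 to -0.56: its signals were 1766.4 and 1676.1 in parental cells and at most 1370.5 on the other 16 arrays. NRF1, a transcription factor of respiratory genes, was higher in 7 clones, by 0.33 to 0.53, with 373.8 and 325.4 in parental cells; in 2H1 the difference was 0.16 ± 0.11 (adjusted p = 0.293). NDUFAF1, a complex I assembly factor, was higher in 6 clones by 0.43 to 0.79, most in 3A4, and SDHAF2, which attaches flavin to SDHA, in 5 clones by 0.38 to 0.48.

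Against parental, the other pathway genes were called in both directions. All calls of list genes, those of TTC19, NRF1, NDUFAF1 and SDHAF2 included, rest on the same 2 parental arrays. How these calls change when single arrays are left out is not given here. COX20, a chaperone for a complex IV core subunit, was higher in 6 clones (0.37 to 0.57), and COA5 lower in 4 (-0.35 to -0.55). COQ3, of ubiquinone synthesis, was higher in 5 clones (0.37 to 0.65), while COQ8A and COQ8B were each lower in 4. ATP5MC1, of the ATP synthase ring, was higher in 5 clones (0.31 to 0.52) and ATP5F1D lower in 3 (-0.45 to -0.65). MYC was lower in 5 clones (-0.48 to -0.80). In 17H5 no ATP synthase, complex II assembly, complex IV assembly or carrier gene passed. In the same clone 1 of 16 complex I assembly factors, 1 of 6 of complex III and 2 of 13 biogenesis regulators did, beside 11.8% of all genes. In the 4 class comparisons limma called 0 genes of every list. Unadjusted p-values under 0.05 were found for at most 2 genes of a list, except for 8 of 18 ATP synthase genes between IDH2-mutant and IDH1-mutant clones, where 13.2% of all genes had one.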

How the data were processed

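Per the labels' protocols, total RNA was amplified with a NuGEN kit, biotin-labelled and hybridised to Affymetrix arrays with 54675 probe sets. The authors deposited 1 table of signal intensities, made with MAS5 per the submitters' processing notes. The values are linear, and each array's trimmed mean is 150.01 or 150.02. The MAS5 version is not given in the sources used here.

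Values were analysed as log2(signal + 2.2), where 2.2 is the 25th percentile of all values, so differences of dim genes are understated. A probe set was tested if both arrays of at least 1 clone reached their array's median, and each gene was read from its tested single-symbol probe set with the highest mean. Intensities of different probe sets were not compared.

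Tests used limma 3.58.1 in R 4.3.3 (lmFit, eBayes with a variance trend, two-sided, Benjamini-Hochberg adjustment over 12531 genes, threshold 0.05), on 18 arrays for clones and on 9 clone means for genotype classes, and were tested on simulated data. The number of arrays limits the precision. Files were read and plotted with Python 3.11.15, pandas 2.3.3 and matplotlib 3.10.9. Named genes were those with the smallest F-test p-values in each complex, isoform pairs, the extremes of each clone past the threshold and the smallest p-values of each class comparison. Members, lists and naming rules were chosen with earlier results of these data known. Alternatives covered the offset, scaling, filter, probe set, variance trend, reference line, replicate block and each array or clone left out.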

Additional observations from a re-analysis of the deposited data

Results flagged for a closer look

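Among the 7 mutant clones, the mean NDUFB2 signal of 3A4 was 1360.0, and the nearest clone, 47C2, was at 988.8. The gap between them was 0.627 of the whole range, above the 95% critical value of 0.568 for 7 samples. The test was run on 42 groups of clone means over 21 named genes, and chance alone marks about 1 group in 20. The genes were named for small p-values or as extremes of a clone, NDUFB2 among them, so the gap describes the difference already given and is no independent support for it. The 2 other NDUFB2 probe sets gave differences from parental of -0.36 and 0.28 in 3A4.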

How the results depend on the processing

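The 0 of 54 members called in each of the 4 class comparisons stayed at 0 under every alternative run, leaving out each clone included. Counts for single clones moved with the arrays left out: 11 to 20 members in the F test, and against parental 6 to 15 in 3A4, 3 to 12 in 47C2, 3 to 11 in 45G3, 2 to 10 in 16F8, 2 to 9 in 8G12, 1 to 8 in 2C11, 0 to 5 in 17H5 and 2 to 4 in 2H1. A fit with 1 array left for a clone assumes that it varies like the other clones. Without the variance trend the F test called 11 members, and the counts were 4 in 2C11, 4 in 8G12, 1 in 17H5 and 6 in 47C2. With no filter they were also 4, 4, 1 and 6. The probe set of highest variance gave 5 in 2H1 and 9 in 3A4. With 16F8 as the reference the counts were 5 in 3A4 and in 17H5 and 0 in 2C11, 8G12, 47C2 and 45G3. Adding a term for the 4 arrays whose poly-A controls were high, chosen after seeing the data, gave 26 members in the F test, 7 in 2H1, 8 in 17H5 and 15 in 45G3, and kept all 62 calls. Of these calls, 59 were kept with quantile normalisation, 43 without the variance trend and 43 with the probe set of highest variance.

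The counts of extreme clones were recomputed under settings chosen after seeing the data. Clone 17H5 was lowest for 13 members with quantile normalisation and for 12 to 32 without 1 of its arrays. Clone 3A4 was highest for 13 with quantile normalisation and for 22 to 28 without 1 of its arrays. Signs turned with 16F8 as the reference for SDHA in 2C11 (-0.11) and 8G12 (-0.01), NDUFA9 in 2H1 (-0.00), and NDUFB10 in 8G12 (-0.04) and 45G3 (-0.36). They turned with the probe set of highest variance for UQCRB in 47C2 (0.15), 45G3 (0.43), mutant against wild-type (0.32) and IDH2 against wild-type (0.22), and for COX5A in IDH2 against wild-type (0.11). With quantile normalisation they turned for UQCRB in 45G3 (0.00) and COX8A in IDH2 against IDH1 (0.02). The causes were not tested. Of the values of named members under all alternatives, 1181 kept their direction and side of the threshold, 154 missed the threshold and 12 turned sign. Of the 1181, 820 came from leaving out 1 array or clone, often one outside the comparison. The class comparisons had no member past the threshold to lose. These totals are therefore no measure of stability. With 16F8 as the reference 4 values kept direction and side, 21 missed the threshold and 5 turned sign.

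Replicate numbers did not pair the samples: deviations of same-numbered arrays of 2 clones correlated at -0.351 to 0.385, and at over 0.1 in 4 of 36 pairs of clones. With the replicate block the F test called 18 members, the counts were 15 in 3A4, 10 in 16F8, 10 in 45G3, 9 in 47C2, 9 in 2C11, 7 in 8G12, 3 in 2H1 and 2 in 17H5, and 2 calls of named members were lost (SDHD in 3A4 and UQCRB in 47C2).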
